A study of Zea mays with 6 samples.

Results

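The pair of maize genes dwarf8 (d8, Zm00001d033680) and dwarf9 (d9, Zm00001d013465) was followed in the leaf sheath of seedlings knocked out for the long noncoding RNA GARR2. These 2 genes were taken by identifier out of the 44146 listed in each library. The rule does not use their values, though it was set with earlier results of these data known. They encode the DELLA proteins of maize. RNA came from the sheath of leaf 2, the tube-like base of a leaf that encloses the younger ones, in seedlings with 3 leaves. The knockout line, labelled GARR2KO, gave 3 libraries, and so did wild type, labelled WT, with all described as biological replicates. The plants were grown in what the submitters call normal conditions, and no gibberellin or other agent was applied to either genotype. The labels do not give the allele, the number of lines or clones behind GARR2KO, or whether WT plants were its siblings.

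DELLA proteins are nuclear members of the GRAS family that repress growth responses to gibberellin. When gibberellin binds its receptor GID1, the receptor binds the DELLA protein, which is then tagged by an F-box ubiquitin ligase and broken down. In maize, dominant dwarf alleles are known for both genes, and those of d8 change the N-terminal region through which the protein meets the receptor. Much of this control acts on the protein, which RNA sequencing does not measure.

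The names d8 and d9 rest on the identifiers chosen for the pair, because the files hold identifiers only. The RefSeq gene table for the assembly Zm-B73-REFERENCE-NAM-5.0, not the build of the files, has 1 entry for each name, but 0 of the files' identifiers occur in it, so no coordinates are given. Of 29 symbols listed for other gibberellin genes (receptor, F-box, synthesis and breakdown among them) 3 occur in that table, as do all 5 symbols listed as tissue markers, and 0 of either list could be tied to an identifier of the files. These genes are not analysed here, and neither the sheath label nor the loss of GARR2 was checked against a transcript. The library totals behind the deposited scaling, as recovered from the values, were 18476907 to 20230916 in GARR2KO and 17656865 to 20836571 in WT. Reads summed over genes came to 94.73 to 96.11% of that total in GARR2KO libraries and 96.95 to 100.45% in WT libraries. This gap between the genotypes moves every fold change slightly, and values under a scaling that removes it follow with the tests. In WT replicate 3 the summed reads, 17736312, exceeded the total, 17656865. The total thus cannot be these summed reads plus any others, and the reason was not tested.

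Both DELLA transcripts were abundant in the sheath, and both fell in GARR2KO. The transcript of d8 fell by 33.3% and that of d9 by 54.6%, comparing the means of the 3 libraries of each genotype. Values are in FPKM, fragments per kilobase of gene scaled to the size of the library, so that levels of genes of different length can be compared.

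The transcript of d8 stood at 59.4, 53.2 and 59.6 FPKM in GARR2KO replicates 1 to 3, against 84.4, 85.7 and 88.2 FPKM in WT replicates 1 to 3. Every GARR2KO library lay below every WT library, and the gap between the genotypes was wider than the range within either. The means were 57.4 ± 3.65 FPKM in GARR2KO and 86.1 ± 1.94 FPKM in WT (SD, n = 3 each). On the log2(FPKM + 1) scale the change was -0.58, with an SE of 0.056, a 95% interval of -0.71 to -0.45 and a limma adjusted p of 9.03e-05.

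The transcript of d9 stood at 30.4, 32.3 and 34.9 FPKM in GARR2KO replicates 1 to 3, against 75.0, 66.4 and 73.6 FPKM in WT replicates 1 to 3. Again the genotypes did not overlap, and the highest GARR2KO value, in replicate 3, was well under the lowest WT value, in replicate 2. The means were 32.5 ± 2.24 FPKM in GARR2KO and 71.7 ± 4.64 FPKM in WT (SD, n = 3 each). The change on the log2(FPKM + 1) scale was -1.12, with an SE of 0.067, a 95% interval of -1.27 to -0.96 and a limma adjusted p of 7.61e-06.

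**Figure D1:**
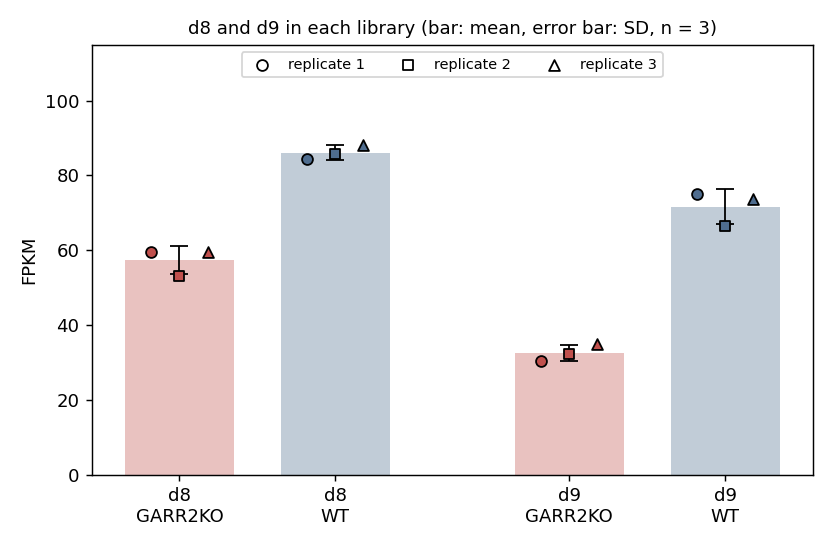
FPKM of d8 and d9 (vertical axis) in GARR2KO and WT libraries, with a symbol for each replicate, bars for means and error bars for SD (n = 3). GARR2KO lies under WT for both genes, at 57.4 against 86.1 FPKM for d8 and at 32.5 against 71.7 FPKM for d9.

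Between single libraries, d8 in any GARR2KO library was 60.3 to 70.6% of its level in any WT library, over all 9 such pairs. For d9 the same span was 40.5 to 52.5%. These spans do not touch, so the weakest loss of d9 in any pair was deeper than the strongest loss of d8. It was not counted how often the spans of other genes stay apart in this way. In absolute terms the mean of d8 fell by 28.7 FPKM, and the mean of d9 fell by 39.2 FPKM.

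Whole reads could be recovered from the FPKM values, and they give the depth behind each. The transcript of d8 had 2275, 1860 and 2168 reads in GARR2KO replicates 1 to 3 and 3328, 3062 and 2948 in WT replicates 1 to 3. For d9 there were 1155, 1120 and 1258 reads in GARR2KO and 2935, 2352 and 2441 in WT. Counting error alone would give a coefficient of variation of 2.19% for d8 in GARR2KO and 1.79% in WT. The observed coefficients of variation were 6.36% in GARR2KO and 2.25% in WT, so WT values of d8 spread little more than counting allows. For d9 counting would give 2.92% in GARR2KO and 1.98% in WT, against observed values of 6.88% in GARR2KO and 6.48% in WT. Counting error covers reads only, since reads copied by PCR are not independent molecules.

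The gene lengths that turned FPKM into whole reads were 1893 bases for d8 and 1878 bases for d9. Both divide evenly into codons, 631 for d8 and 626 for d9, whereas 45.9% of 25016 genes with more than 30 reads had a length that is a multiple of 3. All values of d8 came within 1.1e-05 of a whole read and those of d9 within 9.3e-06, so the values hold no fraction of a read for either gene. Cufflinks, named in the submitters' processing notes, estimates abundances and does not usually give whole reads, so the tool that made these values is not certain. The sources used here do not say how reads matching both paralogs were treated, and the values of the pair carry that uncertainty.

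A change past the threshold was common in these sheaths, which sets the scale for the pair. Of 21531 genes tested, 44.2% were called and 24.1% were called as lower in GARR2KO, while the median log2 change over all of them was -0.01. Both DELLA genes are thus 2 among 5195 genes that fell, and the call itself does not set them apart. Their size of change was less common. A log2 change as low as that of d8 or lower was found in 1582 genes (7.35%), and 1566 of these were called. A change as low as that of d9 was found in 332 genes (1.54%), all 332 of them called. Rises of the same sizes were seen in 1250 genes (5.81%) for d8 and 355 genes (1.65%) for d9. Among the called falls, whose median was -0.43, 30.1% reached the change of d8 and 6.4% that of d9.

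The pair was also set beside genes of similar level. With a mean of 32 to 128 FPKM there were 2872 genes, of which 35.7% fell and 677 rose, with a median log2 change of -0.05. In that class 215 genes (7.5%) had a log2 change as low as that of d8, and 43 (1.5%) one as low as that of d9. Full separation of the kind both DELLA genes showed, with all GARR2KO values under all WT values, was found in 39.5% of the class and in 29.4% of all tested genes.

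**Figure D2:**
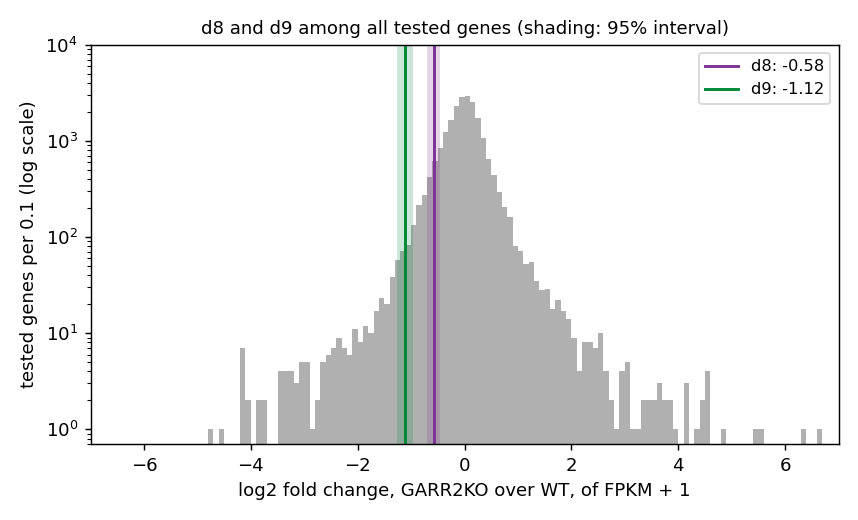
Number of tested genes (vertical axis, log scale) by log2 fold change of FPKM + 1, GARR2KO over WT (horizontal axis), with vertical lines for d8 and d9 and shading for their 95% intervals. The line of d8 at -0.58 stands on the flank of the distribution, and that of d9 at -1.12 lies further out, where 1.54% of genes fell as far.

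The rank of the pair among all transcripts moved as well. By mean level d8 was in place 1885 of the tested genes in GARR2KO and in place 1217 in WT. The place of d9 was 3445 in GARR2KO and 1530 in WT. Expressed as the share of tested genes above it, d8 had 8.75% above it in GARR2KO and 5.65% in WT, and d9 had 16.00% in GARR2KO and 7.10% in WT. Both thus stayed among the more abundant transcripts of the sheath in either genotype.

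The paralogs were then compared with each other on FPKM, a scale that allows for their slightly different lengths. In every one of the 6 libraries d8 was above d9. The log2 ratio of d8 to d9 was 0.97, 0.72 and 0.77 in GARR2KO replicates 1 to 3, and 0.17, 0.37 and 0.26 in WT replicates 1 to 3. Over all libraries the mean was 0.54, a 1.46-fold excess of d8, with a two-sided exact sign-flip permutation p of 0.03125, the smallest that 6 libraries can give. Any gene above another in all 6 libraries gives this p, so it adds nothing to that order. Within a genotype 3 libraries cannot go below an exact p of 0.25.

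The excess of d8 was larger in GARR2KO, at 1.77-fold with a mean log2 ratio of 0.82 ± 0.13, than in WT, at 1.2-fold with 0.27 ± 0.10 (SD, n = 3 each). The ratios of the genotypes did not overlap, and the means differed by 0.55 on the log2 scale. How often the ratio of other pairs of genes separates the genotypes was not counted, so this separation has no background share. The two-sided exact permutation p for this difference was 0.1, the smallest that 3 against 3 can give, so the design cannot bring it under 0.05. The changes of the genes in the limma fit, d8 minus d9, differed by 0.54 with a combined SE of 0.087, which treats the errors of the genes as independent.

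As a share of the DELLA transcript, d9 made up 33.9, 37.8 and 36.9% of the summed FPKM of the pair in GARR2KO replicates 1 to 3, against 47.1, 43.6 and 45.5% in WT replicates 1 to 3. The means were 36.2 ± 2.1% in GARR2KO and 45.4 ± 1.7% in WT (SD, n = 3 each). In reads the share of d9 was 33.7% (exact Clopper-Pearson 95% interval 32.1 to 35.3%), 37.6% (35.8 to 39.4%) and 36.7% (35.1 to 38.4%) in GARR2KO. In WT it was 46.9% (45.6 to 48.1%), 43.4% (42.1 to 44.8%) and 45.3% (44.0 to 46.6%). No interval of a GARR2KO library reached that of a WT library, and none of the 6 reached an equal share. These intervals cover only counting error within a library. Replicates 1 and 2 had separate intervals within GARR2KO and within WT as well, so separate intervals are not a test of genotype.

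**Figure D3:**
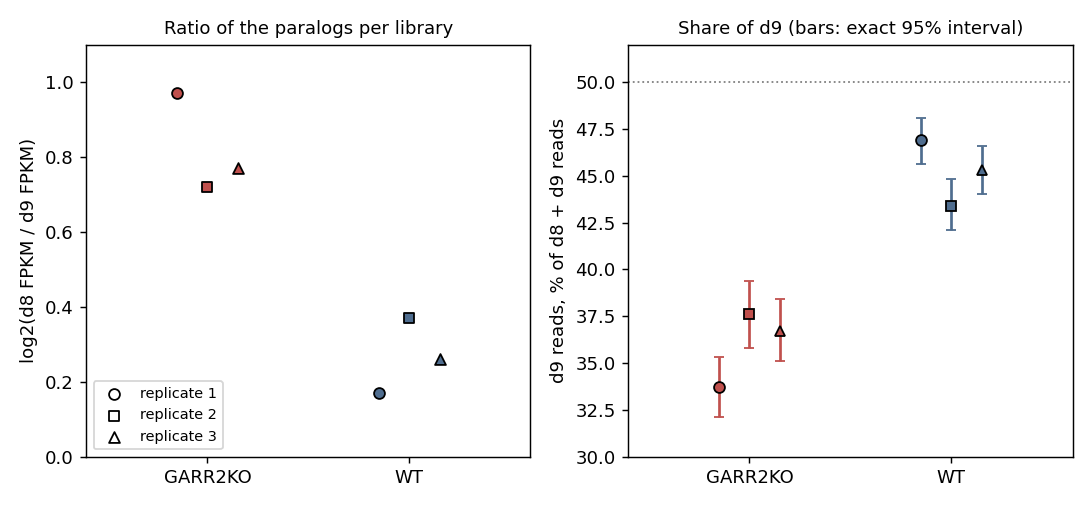
Left, log2 ratio of d8 FPKM to d9 FPKM in each library; right, d9 reads as a percentage of d8 plus d9 reads, with exact 95% intervals for counting error; GARR2KO stands left of WT in both panels. Ratios run from 0.72 to 0.97 in GARR2KO and from 0.17 to 0.37 in WT, and the share of d9 lies lower in GARR2KO.

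Ordered by mean level, the lowest was d9 in GARR2KO, followed by d8 in GARR2KO, d9 in WT and d8 in WT. Neighbours in this order did not overlap in their values. The closest pair across genotypes was d8 in GARR2KO and d9 in WT, which differed by -0.32 on the log2 scale. This difference mixes gene and genotype, so it is a description and not a test of either. Replicates did not keep the same order for both genes. In WT the library lowest in d8, replicate 1, was the highest in d9, and in GARR2KO the library lowest in d8, replicate 2, held the middle value of d9.

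The summed level of the pair was 89.8, 85.5 and 94.4 FPKM in GARR2KO replicates 1 to 3, against 159, 152 and 162 FPKM in WT replicates 1 to 3. The mean sum was 89.9 ± 4.49 FPKM in GARR2KO and 158 ± 5.07 FPKM in WT (SD, n = 3 each), which is 43.0% lower in GARR2KO. The log2 difference was -0.81, with an exact permutation p of 0.1, the smallest possible here. The mean sum in GARR2KO lay close to the 86.1 FPKM of d8 by itself in WT. In a whole sheath, fewer cells expressing these genes and less RNA in each cell cannot be told apart. Growth, harvest or library batches shared by the libraries of a genotype, and differences in background between the lines, cannot be told apart from the knockout either.

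The scaling of the libraries moved these changes little. Dividing each library by its summed gene reads, which shifts the median of all genes to 0.04, gave log2 changes of -0.53 for d8 and -1.07 for d9. The limma-voom fit on recovered reads gave -0.54 for d8 and -1.09 for d9. Both genes stayed lower in GARR2KO and past the threshold under all 15 alternative settings run for each. The filters, robust moderation and the replicate block cannot move the log2 change, so they bear on the adjusted p only.

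**Figure D4:**
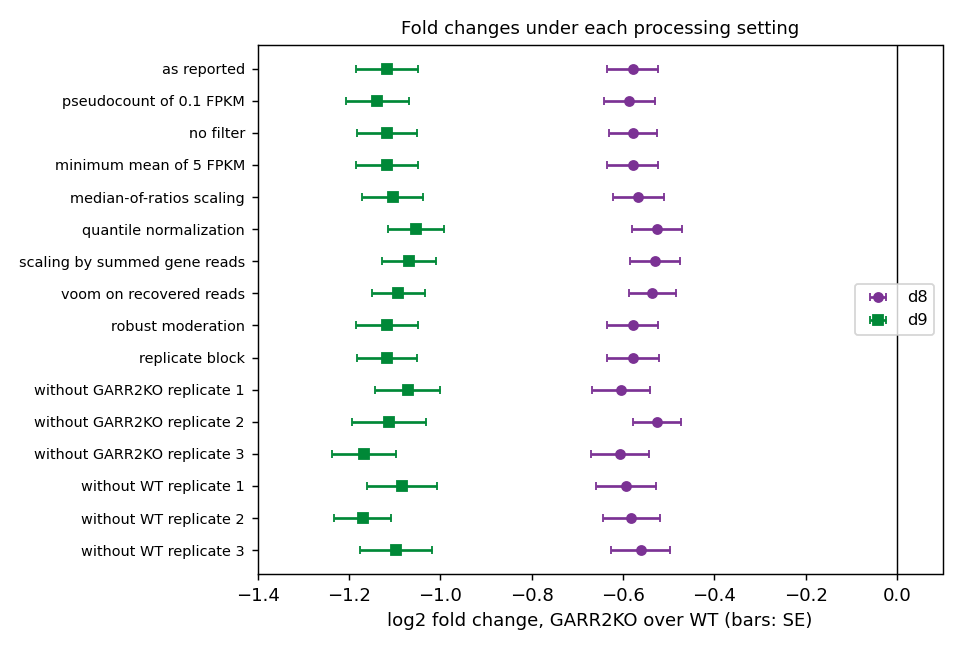
Log2 fold change of d8 and d9, GARR2KO over WT (horizontal axis, bars are SE), under each processing setting (vertical axis). Values of d8 stay between -0.61 and -0.53 and those of d9 between -1.17 and -1.05, so the genes remain apart under the settings plotted. The filters, robust moderation and the replicate block cannot move these values.

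The genes most alike in pattern over the 6 libraries were sought by Pearson's r of log2(FPKM + 1), as a description. The closest to d8 was Zm00001d048356, with an r of 0.9993, which had 44.5, 40.7 and 44.7 FPKM in GARR2KO replicates 1 to 3 and 63.1, 62.7 and 65.0 FPKM in WT replicates 1 to 3. Its log2 change of -0.55 was near that of d8. The closest to d9 was Zm00001d025080, with an r of 0.9994, at 7.78, 7.83 and 7.97 FPKM in GARR2KO and 9.50, 9.24 and 9.40 FPKM in WT. Its log2 change was -0.23, so it followed the order of the libraries in d9 with a smaller step. A high r was common over these 6 libraries: 2085 genes (9.7%) reached 0.95 with d8 and 2097 (9.7%) with d9. A further 1542 (7.2%) were at -0.95 or below with d8 and 1424 (6.6%) with d9. Between d8 and d9 r was 0.974, 947 genes were closer to d8 than d9 was, and 1017 were closer to d9 than d8 was.

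Neither gene stood in a stretch of genes changed 2-fold or more, going by identifier number. Over all tested genes 44.2% were called and 24.1% fell. Of the 20 tested genes nearest in number to d8, 6 were called, with 3 higher and 3 lower in GARR2KO, and their median log2 change was -0.02. A single one of them fell as far as d8, at -1.14. Of the 20 nearest to d9, 11 were called, with 4 higher and 7 lower, and the median was -0.08. These ran from -0.73 to 0.55, so 0 of them fell as far as d9. The tested genes directly before d9 in number were called falls, at -0.73, -0.72 and -0.47. The gene before those was a called rise, at 0.42, and the gene directly after d9, at 0.17, was not called. Changes of 2-fold or more were seen in 1 neighbour of d8 and 0 of d9, against 4.04% of all tested genes. It was not tested that genes with close numbers lie close together on a chromosome.

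**Figure D5:**
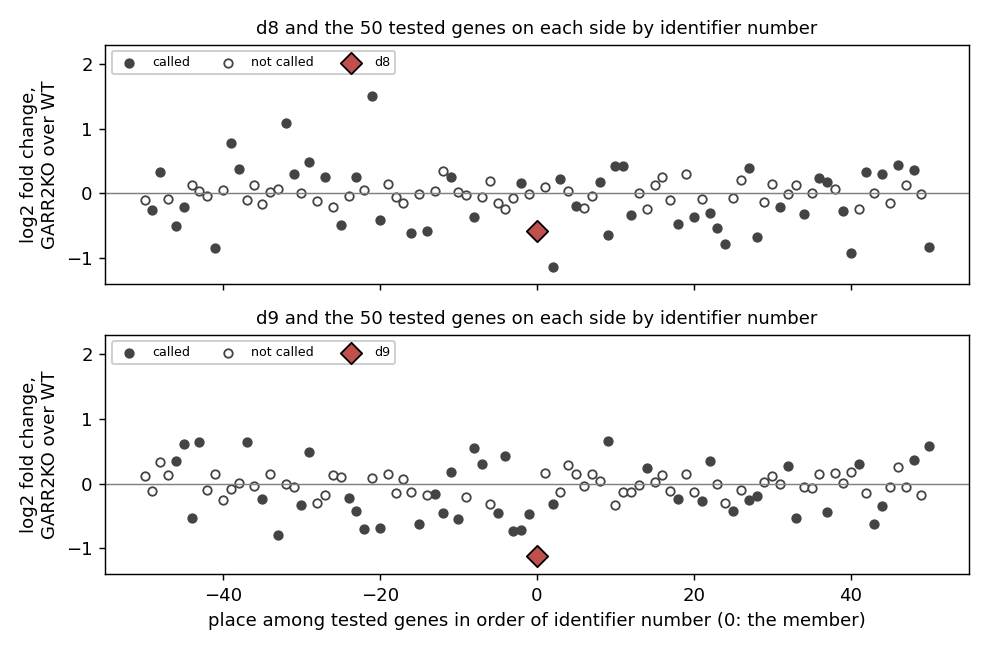
Log2 fold change, GARR2KO over WT (vertical axis), of d8 (top) and d9 (bottom), drawn as diamonds, and of the 50 tested genes on each side in order of identifier number (horizontal axis), filled where called. Neighbours scatter on both sides of 0. Several neighbours of d8 lie below its -0.58, down to -1.14. The lowest neighbour of d9 lies at -0.79, above its -1.12.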

How the data were processed

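RNA was sequenced from the sheath of leaf 2 in 6 libraries, 3 of GARR2KO and 3 of WT, grouped by their titles. The deposited values, 1 per gene and library and not pooled, carry no header and were taken as FPKM, since the submitters' processing notes name Cufflinks and Cuffdiff. RPKM would look the same. Whole reads for nearly all genes are not what Cufflinks usually gives, so another counter may have made the values. These notes also name TopHat2 and the build B73 RefGen_v4, all without versions. The sources used here do not give the annotation release, strand setting, filters or treatment of reads with several matches.

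Whole reads and gene lengths were recovered from the steps between low FPKM values, within a relative tolerance of 1e-06, for 31061 of the 31076 genes above 0, after the procedure had been tested on simulated data. Summed over genes these were 17706650 to 19164090 reads in GARR2KO libraries and 17736312 to 20704847 in WT libraries. The sources used here do not say if single reads or read pairs were counted.

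Genotypes were compared in a limma-trend fit of log2(FPKM + 1) with no covariate (limma 3.58.1 in R 4.3.3). It covered the 21531 genes whose mean reached 1 FPKM. Calls are two-sided, at 0.05 after Benjamini-Hochberg adjustment over these genes. The fit was also run on simulated data in which few genes were changed. Since 44.2% of genes were called here, that run does not show the rate of false calls under so broad a change. The ratio and the sum of d8 and d9 were tested with two-sided exact permutation tests over libraries (SciPy 1.17.1), sign flips for the ratio over all libraries and exchange of genotype labels otherwise. Beside d8 and d9, the gene most alike in pattern to each is named, by the highest Pearson r. The genes and lists were chosen with earlier results of these data known. Alternatives were the pseudocount, the filter, 3 other scalings, voom on recovered reads, robust moderation, a replicate block and leaving out each library.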

Additional observations from a re-analysis of the deposited data

How the results depend on the processing

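Under the 6 fits without a library, the log2 change of d8 ran from -0.61 to -0.53 (adjusted p 0.000347 to 0.00068, limma) and that of d9 from -1.17 to -1.07 (2.11e-05 to 9.15e-05). Under the 9 other settings it ran from -0.59 to -0.53 for d8 (2.35e-08 to 0.000428) and from -1.14 to -1.05 for d9 (1.73e-12 to 6.01e-05). The count of 9517 called genes ran from 7943 to 8847 without a library and from 7318 to 10607 otherwise. Without a library the log2 ratio of d8 to d9 was 0.46 to 0.62, with an exact permutation p of 0.0625, the smallest that 5 libraries can give, so the call is lost by the number of libraries. The difference of this ratio between genotypes was then 0.48 to 0.60, and the log2 difference of the sum -0.85 to -0.78. The split of calls depended on the scaling: 4322 rose and 5195 fell on deposited values, 5361 and 4502 with summed gene reads and 5854 and 4753 with voom. Libraries with the same replicate number did not deviate together from their group means (r of -0.051, -0.046 and 0.049), so the numbers were not taken as pairs. The replicate block cannot move the log2 change in this balanced layout, and it stayed at -0.58 for d8 and -1.12 for d9. With that block both genes stayed past the threshold, and 8963 genes were called.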
